A study of Saccharomyces cerevisiae S288C with 6 samples.

Results

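The genes examined here encode the electron-transfer complexes II, III and IV of the Saccharomyces cerevisiae mitochondrion, the main cytochrome c, the ATP synthase (complex V) and the factors that assemble complexes IV and V. They were chosen by name: every annotated gene of the array whose symbol is COX, QCR or ATP with a number, plus COR1, CYT1, RIP1, CYC1 and SDH1 to SDH4. COX5B, the hypoxic isoform of COX5A, was left out. The rule found 51 of the 5449 yeast genes with a probe set, 35 of them subunits or cytochrome c and 16 assembly factors. Another 6 genes meet the name rule in the RefSeq gene table but had no probe set under their names in the annotation used and were not analysed here. These are COX26 and the genes COX1, COX2, COX3, ATP6 and ATP8 of the mitochondrial DNA, so the values below are those of nuclear genes.

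Cultures of strain S288C, a laboratory yeast, were exposed to the sponge-derived antifungal compound plakortide F acid (PFA) or to solvent. The PFA group held 3 cultures given the compound at 0.62 ug/ml, its IC50, and the DMSO group held 3 cultures given 0.25% DMSO. All grew in MOPS-buffered synthetic glucose medium at pH 7.0, were treated at an optical density of 0.2 and were harvested at 0.5. The labels call them biological replicates and give no further genotype, and neither the time to harvest nor any DMSO in the PFA cultures is given in the sources used here.

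Budding yeast has no proton-pumping NADH dehydrogenase complex. Electrons from NADH, succinate, glycerol 3-phosphate and lactate reach ubiquinone or cytochrome c through small dehydrogenases and complex II, pass through complex III, cytochrome c and complex IV to oxygen, and the proton gradient drives complex V. In glucose medium yeast largely ferments, and many of these genes are held down by glucose repression. The Hap2/3/4/5 complex and the heme-responsive factor Hap1 are known activators of this group, and in S288C the HAP1 gene carries a Ty1 insertion that weakens its product.

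Each culture was read on 1 Affymetrix Yeast Genome array, and these 6 arrays limit the precision. The deposited signals are on a linear scale in arbitrary units, and each array had a trimmed mean of 1001. Between 98.1% and 98.7% of the yeast probe sets on an array lay above a background level of 20.01, the upper range of probe sets for another organism. Log2 signals correlated at 0.991 to 0.994 within a group and at 0.923 to 0.929 between groups. The summed signal of 4 alpha-cell markers was 15660.1 to 16630.3 in PFA and 46693 to 48778 in DMSO, and that of 6 a-cell markers was 454 to 543 in PFA and 1547 to 1583 in DMSO. The part of these mating-type genes in the results below was not tested. The ratio of 3' to 5' signal, a measure of RNA and labelling quality, was 1.19 to 1.25 in PFA and 1.2 to 1.28 in DMSO for ACT1, 2.13 to 2.29 in PFA and 2.13 to 2.4 in DMSO for SPT15, and 2.25 to 2.34 in PFA and 1.86 to 2.7 in DMSO for WBP1. A signal is relative to the total of its array, so a loss of one transcript and a gain of others cannot be told apart, nor can fewer cells of a kind and less RNA per cell.

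All 51 members were above background on each array, and all were tested. Differences were tested with limma across 5356 genes, and a gene was called at a Benjamini-Hochberg adjusted p under 0.05. The call was made for 20 of 51 members (39.2%), while 62.0% of all genes tested were called. Of these, 12 were higher in PFA (23.5% of members, 30.3% of all genes) and 8 were lower (15.7% of members, 31.8% of all genes). Signals of the PFA arrays lay wholly above or below those of the DMSO arrays for 25 members (49.0%), against 66.6% of all genes. A call with a change of at least 1.5-fold was made for 2 members, CYC1 and COX19 (3.92%), against 23.7% of all genes. The median log2 change was 0.03 over the members and -0.02 over all genes, and the median size of a change regardless of sign was 0.15 over the members and 0.32 over all genes. After centring each array on its median signal, a scaling that shifted the median of all genes to -0.08, 12 members were higher (23.5% of members, 26.6% of all genes) and 16 lower (31.4% of members, 36.8% of all genes).

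**Figure D1:**
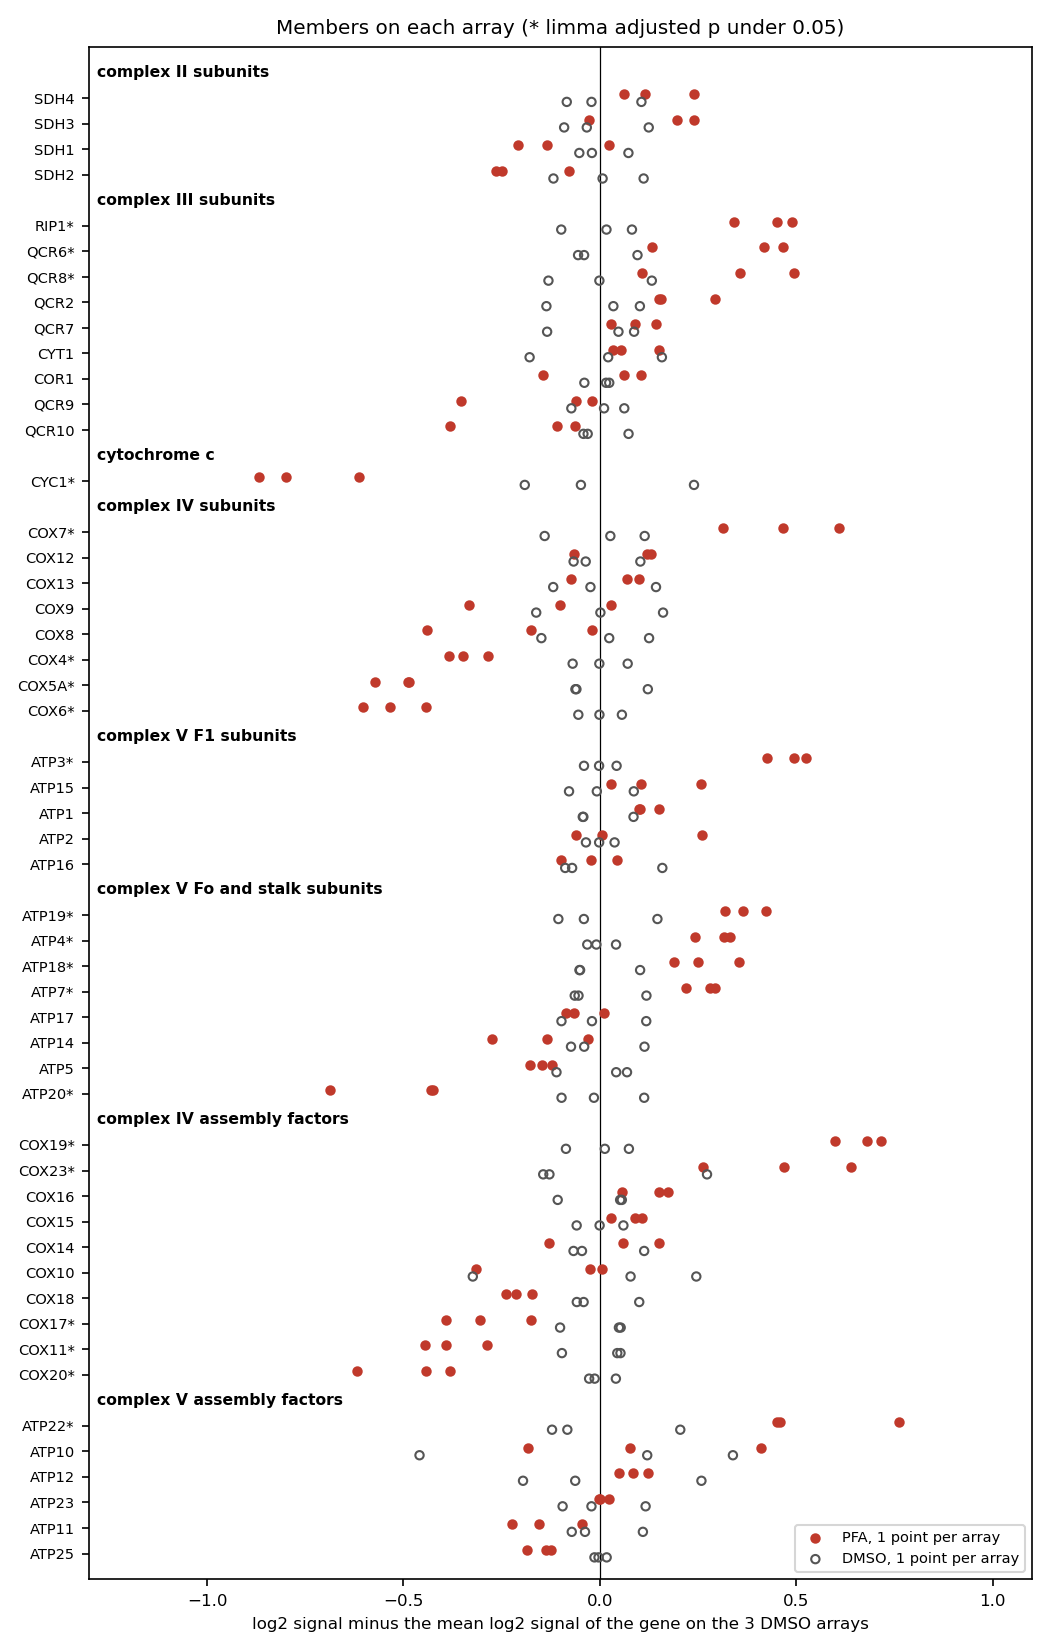
Each member on each array, grouped by complex, as log2 signal minus the mean log2 signal of the gene on the 3 DMSO arrays, with PFA arrays as filled points and DMSO arrays as open points. All 3 PFA arrays lie above 0 for 21 members and below it for 17, mostly by less than 0.5, while CYC1 lies farthest to the left and COX19 and ATP22 reach farthest to the right.

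Complex II, succinate dehydrogenase, feeds electrons from succinate into ubiquinone and is shared with the tricarboxylic acid cycle. None of its 4 subunit genes was called by limma, where 62.0% of all genes were, and 1 of them, SDH2, had an unadjusted p under 0.05. SDH2 (YLL041C), the iron-sulfur subunit, had signals of 1519, 1711 and 1504 in PFA, against 1952, 1664 and 1815 in DMSO. The groups overlapped, because PFA replicate 2 lay above DMSO replicate 2. SDH2 differed by -0.20 ± 0.087 on the log2 scale (SE, n = 3 each, adjusted p = 0.0644), with a 95% interval from -0.39 to -0.01.

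SDH4 (YDR178W), a membrane anchor subunit, had signals of 2898, 3159 and 2792 in PFA, against 2524, 2636 and 2879 in DMSO. SDH3 (YKL141W), the other anchor, had 3878, 3999 and 3323 in PFA, against 3689.9, 3308 and 3178 in DMSO. Both groups overlapped for both anchors, at log2 changes of 0.14 (SDH4, adjusted p = 0.143, 95% interval -0.03 to 0.31) and 0.14 (SDH3, adjusted p = 0.188, 95% interval -0.05 to 0.32). The flavoprotein gene SDH1 (YKL148C) differed by -0.11 on that scale (adjusted p = 0.291). The intervals of these 4 genes leave room for changes of up to 0.39 in size on the log2 scale.

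Complex III, the cytochrome bc1 complex, passes electrons from ubiquinol to cytochrome c. Of its 9 measured subunit genes 3 rose, 0 fell and 6 were not called, with a median log2 change of 0.09. The share higher was 33.3%, beside 30.3% of all genes, and the share called was 33.3%, beside 62.0%. The largest rise was that of RIP1 (YEL024W), the Rieske iron-sulfur protein, with signals of 2381, 2204 and 2442 in PFA, against 1761, 1626 and 1842 in DMSO. All 3 PFA arrays were above all 3 DMSO arrays. RIP1 rose 1.34-fold, to 2342 ± 124 in PFA, against 1743 ± 109 in DMSO (SD, n = 3 each), or 0.43 ± 0.079 on the log2 scale (SE, adjusted p = 0.0005).

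The array carries 3 further probe sets named for RIP1 as control probes along the transcript, which had no part in choosing or testing the gene. The 5' control probe set read 1431, 1293 and 1311 in PFA, against 1167, 1139.5 and 1120.1 in DMSO. The middle one read 1656, 1534 and 1379.5 in PFA, against 1069, 1183 and 1296 in DMSO, and the 3' one read 1424, 1375 and 1329 in PFA, against 1059.9, 1068 and 1293 in DMSO. In each of the 3 the groups did not overlap, and the PFA to DMSO ratios were 1.18, 1.29 and 1.21, smaller than that of the main probe set. Ratios of 3' to 5' signal for RIP1 were 0.996 to 1.06 in PFA and 0.908 to 1.15 in DMSO.

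QCR6 (YFR033C), an acidic subunit next to cytochrome c1, had signals of 3826, 3697 and 3035 in PFA, against 2957, 2663 and 2691 in DMSO. It rose 1.27-fold without overlap (log2 0.34 ± 0.092, SE, adjusted p = 0.00626). QCR8 (YJL166W), a small subunit of the ubiquinone-binding region, had signals of 8791, 8004 and 6729 in PFA, against 6847, 5705 and 6242 in DMSO. QCR8 rose 1.25-fold (log2 0.32 ± 0.094, SE, adjusted p = 0.0101), although PFA replicate 3 lay below DMSO replicate 1. QCR2 (YPR191W), a core protein, lay just beyond the threshold (log2 0.20, adjusted p = 0.05002), with PFA arrays at 2693 to 2975 and DMSO arrays at 2208 to 2603. Its adjusted p ran from 0.0295 to 0.17 over 16 alternatives and was under 0.05 in 7 of them. The other 5 subunit genes had log2 changes from -0.18 for QCR10 to 0.09 for QCR7, among them COR1, the other core protein (0.01, adjusted p = 0.945), and CYT1, cytochrome c1 (0.08, adjusted p = 0.488).

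Cytochrome c carries electrons between complexes III and IV, and CYC1 (YJR048W) encodes its main isoform. CYC1 had the largest fall of the members on the log2 scale, with signals of 1722, 1512 and 1441 in PFA, against 3108, 2546 and 2306 in DMSO. The highest PFA array was below the lowest DMSO array. CYC1 averaged 1558 ± 146 in PFA and 2653 ± 412 in DMSO (SD, n = 3 each), which is 1.69-fold lower in PFA (log2 -0.76 ± 0.109, SE, adjusted p = 6.58e-05).

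The minor, hypoxic isoform CYC7 (YEL039C), which is not a member, had signals of 605, 1149 and 938 in PFA, against 2024, 1016 and 1572 in DMSO. It was called lower at a log2 change of -0.77 with overlapping groups (adjusted p = 0.014), and the call was lost under 4 of 16 alternatives (adjusted p from 0.00134 to 0.0764). The within-array log2 ratio of CYC1 to CYC7 differed by 0.01 between PFA and DMSO (exact permutation p = 0.9, two-sided, where 0.1 is the smallest p that 3 against 3 arrays allow), with SDs of 0.588 in PFA and 0.429 in DMSO.

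Complex IV, cytochrome c oxidase, reduces oxygen. Of its 8 measured subunit genes, all nuclear, 3 fell, 1 rose and 4 were not called, with a median log2 change of -0.17. These are 37.5% lower and 12.5% higher, beside 31.8% and 30.3% of all genes, and 50.0% called, beside 62.0%. COX6 (YHR051W), a small nuclear-encoded subunit, had signals of 2213, 2361 and 2112 in PFA, against 3335, 3088 and 3205 in DMSO. COX5A (YNL052W), the aerobic form of subunit V, had 2683, 2846 and 2845 in PFA, against 4341, 3820.1 and 3827 in DMSO. Neither gene had overlapping groups. COX6 was 1.44-fold lower in PFA (log2 -0.53 ± 0.073, SE, adjusted p = 5.05e-05) and COX5A 1.43-fold lower (log2 -0.52 ± 0.074, SE, adjusted p = 6.34e-05).

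COX4 (YGL187C), which encodes a zinc-binding subunit, fell as well, at a log2 change of -0.34 (adjusted p = 0.00145), with PFA arrays at 1991 to 2135 and DMSO arrays at 2478 to 2731. COX7 (YMR256C) was the single subunit gene of complex IV that rose, with signals of 5418, 4911 and 4414 in PFA, against 3847, 3621 and 3224 in DMSO. It was 1.38-fold higher in PFA (log2 0.46 ± 0.088, SE, adjusted p = 0.000615) and its groups did not overlap. The 4 subunit genes not called were COX8, COX9, COX12 and COX13, with log2 changes of -0.21, -0.14, 0.06 and 0.03 in that order, and adjusted p from 0.0979 to 0.747.

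COX5B (YIL111W), the hypoxic form of subunit V, read 1184, 1375 and 933 in PFA, against 1772, 1585 and 1599 in DMSO, a log2 change of -0.52 (adjusted p = 0.00245). The within-array log2 ratio of COX5A to COX5B differed by 0.01 between PFA and DMSO (exact permutation p = 1, two-sided, smallest possible 0.1, and adjusted p = 1 over the 2 isoform pairs). Its spread was 0.292 in PFA and 0.0171 in DMSO (SD, n = 3 each).

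**Figure D2:**
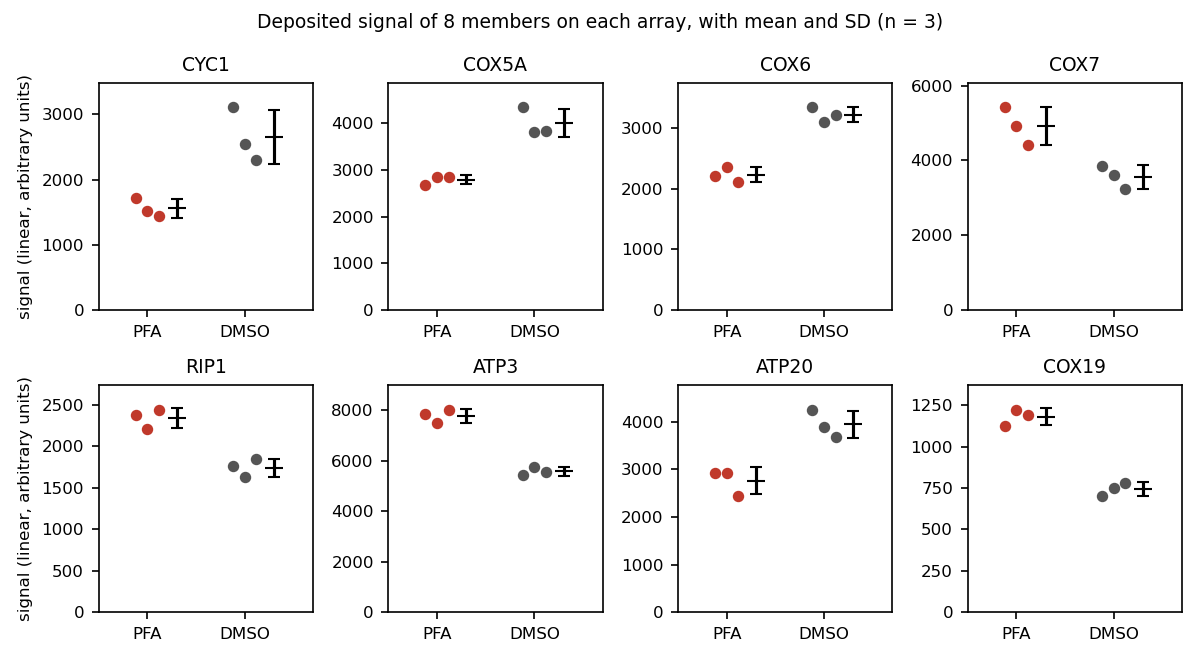
Deposited linear signal of 8 members on each of the 3 PFA and 3 DMSO arrays, with bars beside the points for mean and SD. CYC1, COX5A, COX6 and ATP20 are lower on every PFA array, and COX7, RIP1, ATP3 and COX19 are higher on every PFA array.

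Complex V makes ATP with a catalytic F1 head and a membrane Fo part joined by stalks. Of the 13 measured subunit genes that carry an ATP name 5 rose, 1 fell and 7 were not called, with a median log2 change of 0.12. These are 38.5% higher and 7.69% lower, beside 30.3% and 31.8% of all genes, and 46.2% called, beside 62.0%. Subunit e, encoded by TIM11, was counted in another list and was not called (log2 0.17, adjusted p = 0.1). In the F1 head, 1 of 5 was called. ATP3 (YBR039W), the gamma subunit that forms the turning central shaft, had signals of 7855, 7476 and 8020.4 in PFA, against 5418, 5739 and 5564 in DMSO. Its groups were well apart, and at 1.4-fold higher (log2 0.48 ± 0.057, SE, adjusted p = 1.28e-05) ATP3 had the lowest adjusted p of the 51 members.

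The catalytic hexamer itself was not called. ATP1 (YBL099W), the alpha subunit, had signals of 9007, 9033 and 9334 in PFA, against 8927, 8163 and 8171 in DMSO, which do not overlap but differ by a log2 change of 0.12 (adjusted p = 0.0804). ATP2, the beta subunit, had a log2 change of 0.07 (adjusted p = 0.474, 95% interval -0.10 to 0.24). ATP15 (YPL271W), the epsilon subunit of the central stalk, had 6081, 6760.5 and 5766 in PFA, against 6005, 5626 and 5357 in DMSO, with overlap (log2 0.13, adjusted p = 0.136). ATP16, the delta subunit of that stalk, had a log2 change of -0.03 (adjusted p = 0.787).

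In the Fo part and the outer stalk, 4 of 8 rose and 1 fell (50.0% and 12.5%, beside 30.3% and 31.8% of all genes). ATP20 (YPR020W), subunit g, which takes part in joining ATP synthases into dimers, had signals of 2929.7, 2918 and 2443 in PFA, against 4254, 3893 and 3677 in DMSO. It was 1.43-fold lower in PFA without overlap (log2 -0.51 ± 0.087, SE, adjusted p = 0.000258). ATP19 (YOL077W-A), subunit k, another dimer-associated protein, had 1634, 1702 and 1583 in PFA, against 1181, 1406 and 1235 in DMSO. ATP19 was 1.29-fold higher in PFA (log2 0.37 ± 0.085, SE, adjusted p = 0.00236), so these dimer-associated genes were called in opposite directions.

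ATP4 (YPL078C), subunit b of the outer stalk, had signals of 5815, 6189 and 6127 in PFA, against 4812, 4890.5 and 5063 in DMSO. It rose 1.23-fold without overlap (log2 0.30 ± 0.059, SE, adjusted p = 0.000841). ATP7, subunit d of the same stalk, and ATP18, a small membrane subunit, rose 1.2-fold each (log2 0.26 for both, adjusted p = 0.0048 and 0.00721). The stalk genes ATP5, which encodes the oligomycin-sensitivity protein on top of F1, and ATP14, subunit h, were not called, at log2 changes of -0.15 for both (adjusted p = 0.0761 and 0.151). ATP17, subunit f, was at -0.05 (adjusted p = 0.618).

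Assembly factors insert heme and copper, bring subunits together or help mitochondrial messages to be translated. Of the 10 measured for complex IV 2 rose, 3 fell and 5 were not called, with a median log2 change of -0.04, and of the 6 for complex V 1 rose and 5 were not called, with a median of 0.05. COX19 (YLL018C-A), a copper-binding protein of the intermembrane space that works with COX11, had signals of 1127, 1223 and 1192 in PFA, against 701, 751 and 783 in DMSO. The groups were far apart and COX19, at 1.59-fold higher in PFA (log2 0.66 ± 0.080, SE, adjusted p = 1.57e-05), had the largest rise among the members.

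COX23 (YHR116W), a relative of the copper chaperone COX17, had signals of 269, 302 and 233 in PFA, against 235, 176 and 178 in DMSO. It rose 1.37-fold with overlapping groups (log2 0.46 ± 0.146, SE, adjusted p = 0.0163), and lost the call after quantile normalization (adjusted p = 0.062) and without PFA replicate 2, DMSO replicate 2 or DMSO replicate 3. Over 15 alternatives its adjusted p ran from 0.00425 to 0.0728. COX20 (YDR231C), a chaperone of the subunit Cox2, had 1142, 1193 and 1011 in PFA, against 1598, 1539 and 1524 in DMSO. COX20 fell without overlap and was 1.4-fold lower in PFA (log2 -0.48 ± 0.083, SE, adjusted p = 0.000291).

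COX11 (YPL132W), which delivers copper to Cox1, fell at a log2 change of -0.37 (adjusted p = 0.00308), with PFA arrays at 403 to 449.8 and DMSO arrays at 513 to 569. COX17 (YLL009C), the copper chaperone, fell at -0.29 (adjusted p = 0.00999), with PFA arrays at 1119 to 1301 and DMSO arrays at 1369 to 1524. COX10 and COX15, enzymes that together turn heme B into heme A, were not called (log2 -0.11 and 0.07, adjusted p = 0.562 and 0.388), nor were COX14, COX16 and COX18 (log2 0.03, 0.13 and -0.21, adjusted p from 0.0584 to 0.814). COX10 was among the dimmest members, and its 95% interval of -0.45 to 0.23 is wide.

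ATP22 (YDR350C), needed to translate the mitochondrial ATP6 message, had signals of 552, 549 and 682 in PFA, against 463, 379.5 and 369 in DMSO. It rose 1.47-fold without overlap (log2 0.56 ± 0.117, SE, adjusted p = 0.00119). ATP25 (YMR098C), which acts on the mitochondrial message of the Fo ring subunit, had 656, 684 and 679 in PFA, against 755, 744 and 739 in DMSO. ATP11 (YNL315C), a chaperone of F1, had 1524, 1646 and 1454 in PFA, against 1832, 1654 and 1616 in DMSO. Neither was called (log2 -0.15, adjusted p = 0.108 for ATP25, and log2 -0.14, adjusted p = 0.155 for ATP11), although the ATP25 groups did not overlap. ATP12, the other F1 chaperone, and ATP10 and ATP23, which act on the Atp6 protein, had log2 changes of 0.08, 0.10 and 0.01, and ATP10, the dimmest member, had a 95% interval of -0.39 to 0.60.

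**Figure D3:**
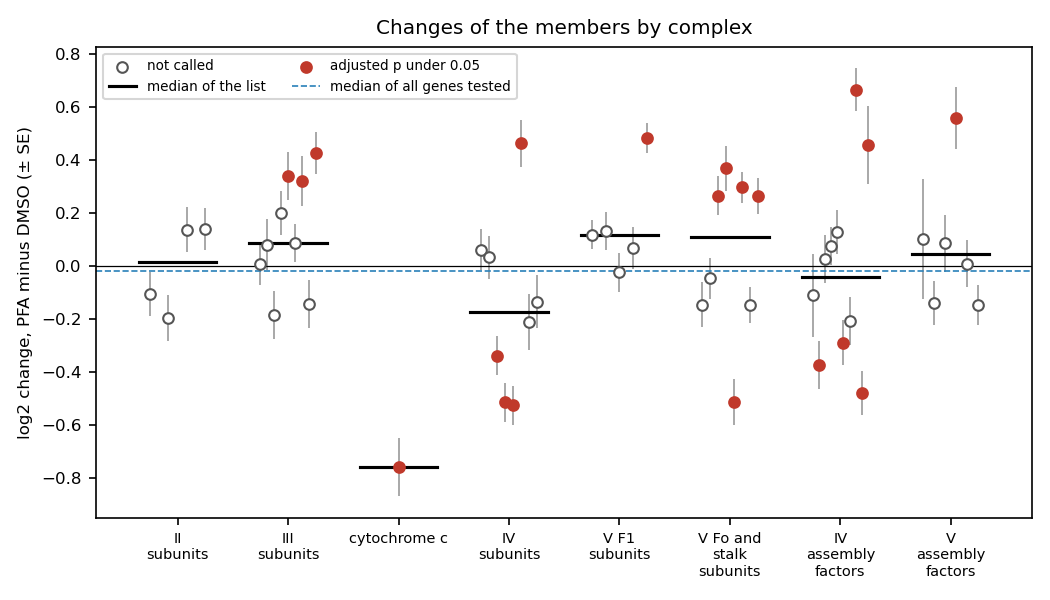
Log2 change of each member, PFA minus DMSO, with SE bars, in columns by complex, where filled points have a limma adjusted p under 0.05, thick lines are list medians and the dashed line is the median of all genes tested. Complex II has no filled point, complex III has filled points above 0 alone, and complexes IV and V and the complex IV assembly factors have them on both sides.

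Set side by side, the median log2 changes were 0.01 for complex II, 0.09 for complex III, -0.17 for complex IV, 0.12 for complex V and 0.02 for all 16 assembly factors. The difference between complexes was not tested. The mean log2 signal of the complex IV genes, relative to DMSO, was -0.09, -0.09 and -0.26 on the PFA arrays, against 0.10, -0.06 and -0.04 on the DMSO arrays, so the lowest of the 6 was PFA replicate 3. Without PFA replicate 3 the median change of complex IV was -0.07, and without DMSO replicate 3 that of complex III was 0.16. For complex V the same mean was 0.10, 0.11 and 0.05 on the PFA arrays, against 0.00, 0.02 and -0.02 on the DMSO arrays. For complex III it was 0.155, 0.171 and 0.0504 on the PFA arrays, against 0.0186, -0.0269 and 0.0083 on the DMSO arrays. The groups did not overlap in complexes III, IV and V, and they overlapped in complex II and the assembly factors. Across the 51 members the log2 change had a Pearson correlation of 0.03 with the mean log2 signal and of 0.02 with annotated gene length, over genes that share the same 6 arrays. ATP10 and COX8 are neighbours on their chromosome with 1 gene between them, and no other members lie as close.

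Of 85 measured genes in 10 further lists of respiration, 24 rose and 21 fell (52.9% called, 28.2% higher and 24.7% lower), beside 62.0% called, 30.3% higher and 31.8% lower among all genes. Of 5 factors for the assembly of complex II, whose subunits were not called, 3 rose and 1 fell. These are 80.0% called and 60.0% higher, beside 62.0% and 30.3% of all genes. The difference between these factors and the complex II subunits was not tested. SDH6 (YDR379C-A), which protects the iron-sulfur subunit during its maturation, had signals of 1472, 1439 and 1048 in PFA, against 566, 437 and 544 in DMSO, and was 2.55-fold higher (adjusted p = 3.04e-06). SDH8, a chaperone of the flavoprotein, rose 1.98-fold (adjusted p = 1.86e-06) and SDH5, needed to attach its flavin, 1.41-fold (adjusted p = 0.000223). SDH7, a partner of SDH6, was lower at a log2 change of -0.33 (adjusted p = 0.023), a call lost under 4 of 15 alternatives (adjusted p from 0.00956 to 0.085).

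Complex III assembly and cytochrome maturation had 3 of 13 higher and 5 lower (23.1% and 38.5%, beside 30.3% and 31.8% of all genes). CYC3 (YAL039C), the lyase that attaches heme to cytochrome c, had signals of 3110.3, 3333 and 2985 in PFA, against 1006, 1144 and 975 in DMSO. CYC3 was 3.02-fold higher in PFA (log2 1.60 ± 0.085, SE, adjusted p = 1.01e-08), while its substrate gene CYC1 was lower. The cytochrome b assembly genes CBP4 and CBP3 were 1.64-fold and 1.38-fold lower (adjusted p = 0.000158 and 0.00207), and CBS2, an activator of cytochrome b translation, was 1.37-fold lower (adjusted p = 0.00535).

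The wider list of complex IV assembly and translation genes had 1 of 23 higher, 7 lower and 15 not called, with a median log2 change of -0.16. These are 4.35% higher and 30.4% lower, beside 30.3% and 31.8% of all genes, and 34.8% called, beside 62.0%. PET191 fell at a log2 change of -0.70 (adjusted p = 7.8e-05) and PET117 at -0.62 (adjusted p = 0.00877), both needed to assemble the oxidase. COA4, another such gene, was lower at -0.39 (adjusted p = 0.0265) and PET309, an activator of COX1 translation, higher at 0.46 (adjusted p = 0.0237). Each of the calls for COA4 and PET309 was lost under 4 of 15 alternatives, with adjusted p from 0.0023 to 0.115 for COA4 and 0.00383 to 0.103 for PET309.

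Among regulators and expression factors of the ATP synthase 4 of 9 rose and 1 fell (44.4% and 11.1%, beside 30.3% and 31.8% of all genes). The F1 inhibitor gene INH1 rose 1.51-fold (adjusted p = 0.000441) and STF1, which acts with it, 1.6-fold, with STF1 signals of 4093, 4122 and 3348 in PFA, against 2463, 2407 and 2328 in DMSO (adjusted p = 2.48e-05). AEP3, which stabilises the ATP6 and ATP8 message, rose 1.52-fold (adjusted p = 0.00031), and FMC1, an F1 assembly gene, was 1.48-fold lower (adjusted p = 0.00171). Of the supercomplex factors, RCF2 rose 1.46-fold (adjusted p = 3.61e-05) and RCF1 was not called (log2 -0.03, adjusted p = 0.773).

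Among dehydrogenases that feed the chain from NADH, glycerol 3-phosphate and lactate, 5 of 7 rose and 0 fell, where 30.3% of all genes rose, and the median of their log2 changes was 0.62. NDE2 (YDL085W), an NADH dehydrogenase facing the cytosol, had signals of 133, 187 and 157 in PFA, against 52.2, 38.4 and 33.8 in DMSO, or 3.86-fold higher (log2 1.95, adjusted p = 1.39e-05). Its DMSO signals lie near the background of 20.01, and with a pseudocount of 64 the log2 change was 1.08. GUT2, the glycerol 3-phosphate dehydrogenase, rose 2.22-fold (adjusted p = 1.52e-07), and the lactate dehydrogenases DLD1 and CYB2, which pass electrons to cytochrome c, rose 1.54-fold and 1.53-fold (adjusted p = 3.11e-06 and 0.00854). In ubiquinone synthesis the counts were 3 of 11 higher and 4 lower (27.3% and 36.4%, beside 30.3% and 31.8% of all genes). CAT5 was 1.73-fold and COQ10 1.32-fold lower (adjusted p = 1.3e-05 and 0.000903), and COQ8 was 1.63-fold and COQ4 1.43-fold higher (adjusted p = 1.74e-05 and 0.000127).

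Mitochondrial carriers of ADP, ATP and phosphate had 2 of 6 higher and 1 lower (33.3% and 16.7%, beside 30.3% and 31.8% of all genes). AAC3, the ADP/ATP carrier of anaerobic cells, had signals of 278, 270.2 and 299.9 in PFA, against 925, 881 and 818 in DMSO, or 3.09-fold lower (adjusted p = 1.4e-08). AAC1, a minor carrier of the same family, rose 1.93-fold (adjusted p = 5.85e-07) and the phosphate carrier gene MIR1 1.29-fold (adjusted p = 0.00103).

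**Figure D4:**
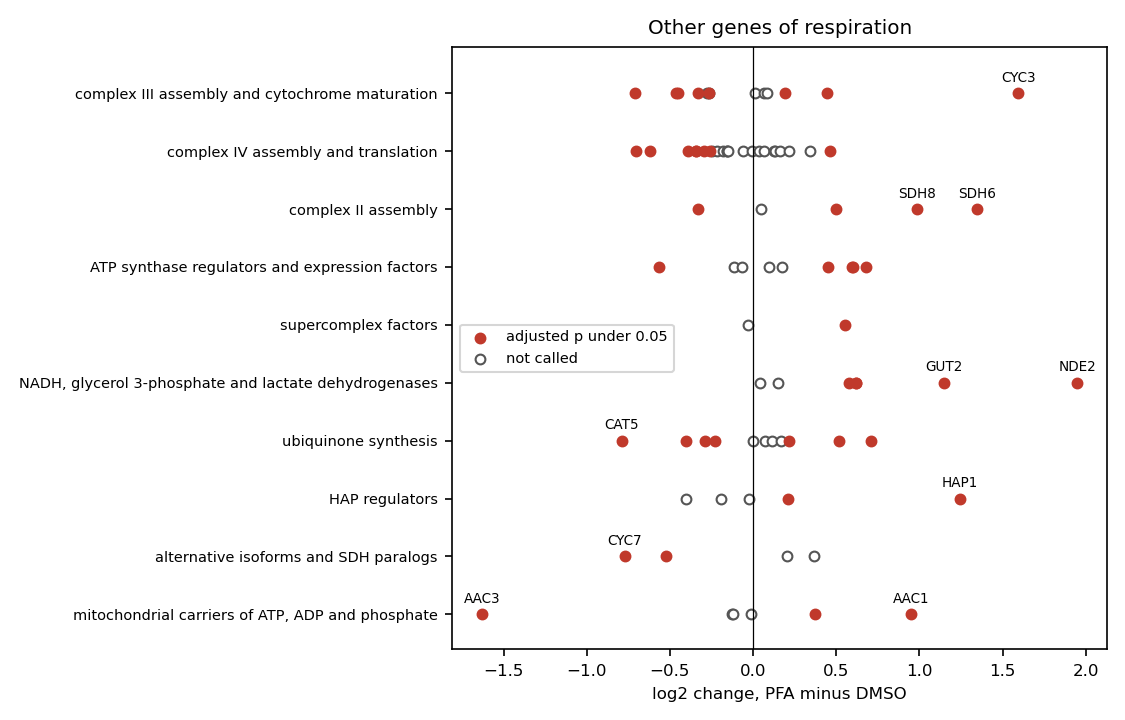
Log2 change, PFA minus DMSO, of the 85 other genes of respiration, with a row per list and filled points for a limma adjusted p under 0.05. NDE2, CYC3 and SDH6 lie farthest to the right and AAC3 farthest to the left.

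The list of alternative isoforms and SDH paralogs, which holds COX5B and CYC7, had 2 of 4 lower and 0 higher (50.0% lower, beside 31.8% of all genes). Of the HAP regulators 2 of 5 were called (40.0%, beside 62.0% of all genes). HAP1 (YLR256W) had signals of 4536, 4246 and 4465 in PFA, against 1899.7, 1840.4 and 1845 in DMSO. It was 2.37-fold higher in PFA (log2 1.25 ± 0.067, SE, adjusted p = 1.2e-08). HAP4 (YKL109W), the glucose-repressed activating subunit of the Hap2/3/4/5 complex, had 408, 687 and 639 in PFA, against 785, 623 and 847 in DMSO. HAP4 was not called and its groups overlapped (log2 -0.40 ± 0.173, SE, adjusted p = 0.0596), with an adjusted p under 0.05 in 6 of 15 alternatives (0.0185 to 0.275). The DNA-binding subunit genes HAP2 and HAP3 were not called (log2 -0.02 and -0.20, adjusted p = 0.859 and 0.12). HAP5 was higher at a log2 change of 0.21 (adjusted p = 0.0458), a call lost under 10 of 15 alternatives (adjusted p from 0.0249 to 0.169).

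As a measure of neighbouring mitochondrial pathways, 5 of 12 tricarboxylic acid cycle genes outside complex II were called (41.7%), 3 higher and 2 lower, with a median log2 change of 0.06. Among 69 mitochondrial ribosomal protein genes 47 were called (68.1%), 5 higher (7.25%) and 42 lower (60.9%), with a median of -0.31. Of all genes 62.0% were called, 30.3% higher and 31.8% lower. Differences between these lists and the 51 members were not tested.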

How the data were processed

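The authors deposited 1 linear signal intensity for each probe set and array. GCOS 1.1 is named in the submitters' processing notes, and how probes were summarised is not stated there. Trimmed means of the arrays (lowest and highest 2% left out) were 1000.51 to 1000.59. Groups and replicate numbers came from the sample titles, and all 6 columns of values were used. Through the annotation of the platform and RefSeq, 5498 probe sets were paired with a single yeast gene, covering 5449 genes, and the brightest probe set stood for each gene. Each member had 1 probe set. Background was set at the 95th percentile of mean log2 signal among 1746 probe sets for another organism, and 93 genes below it were left out.

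Log2 signals without a pseudocount were compared using limma (version 3.58.1, R 4.3.3) with lmFit and trended eBayes. Tests were two-sided, with no replicate block, and p-values were adjusted by Benjamini-Hochberg across 5356 genes. Folds are ratios of geometric means. The procedure was run on simulated data with independent noise and far fewer changed genes than were called here. That run cannot show how the adjusted p behaves at the share of genes called here. Isoform ratios were compared by exact permutation over arrays. Matplotlib 3.10.9 under Python 3.11.15 drew the figures. The 16 alternatives were a replicate block, quantile normalization, median centring, no filter or a stricter one, pseudocounts of 16 and 64, no variance trend, the mean of a gene's probe sets, probe sets specific to 1 gene, and leaving out each array.

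Members and lists were chosen with earlier results of these data known. Values on every array were to be given for the 3 members of each list with the largest change, for called changes of at least 1.5-fold and for CYC1. The other lists are represented by up to 4 called genes each, and HAP1 to HAP5, COX5B and CYC7 are given whatever their result. The RIP1 control probe sets and the tricarboxylic acid cycle and ribosomal protein lists were added after the data were seen. RCF1 and TIM11 were named after their values were seen. Promoter motifs were not analysed here.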

Additional observations from a re-analysis of the deposited data

How the results depend on the processing

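Of the 20 called members, 19 kept the call and direction under every alternative that gave a value, and 1, COX23, did not. Of the 31 not called, 12 were called under at least 1 alternative. Median centring gave 16 members lower, against 8 as deposited, and 1971 genes lower in all, against 1701. It moved the median log2 change to -0.0468 for complex II, 0.0249 for complex III and -0.236 for complex IV. The medians of complex V and the assembly factors moved to 0.0553 and -0.0447. Quantile normalization moved that of the assembly factors to -0.0353. Testing only genes above the median signal of yeast probe sets left 39 members and 2724 genes in all. Of these genes 1893 were called (813 higher, 1080 lower), against 3323 of 5356 (1622 higher, 1701 lower). The share called was 69.5%, against 62.0%, and among members 43.6%, against 39.2%. With fewer genes tested, this filter gave 14 higher and 5 lower in the other respiration lists, against 24 and 21 of 85. The number of those genes that passed the filter is not given here, so the shares cannot be compared. Among the genes that passed the filter, medians were 0.143 for complex III (8 genes) and -0.142 for the assembly factors (5 genes of 16). With each array left out in turn, medians ran from -0.0101 to 0.0253 for complex II, 0.0582 to 0.159 for complex III, -0.231 to -0.067 for complex IV, 0.0905 to 0.16 for complex V and -0.0379 to 0.0108 for the assembly factors, and 20 to 22 members were called. Centring takes a constant from each array, so it moves the log2 changes of all genes alike. The stricter filter changes which genes enter a median. The cause of the other shifts was not tested. Same-numbered arrays had correlations of -0.0456, -0.0898 and 0.156 between their deviations from the group means. Differently numbered arrays had correlations from -0.105 to 0.164. With 3 arrays per group these values cannot show whether same-numbered cultures were handled together. A replicate block called 21 members, against 20, the added one being QCR2, and 3366 genes in all. The block also brought HAP4 under the threshold and HAP5 over it. The low number of arrays and the small size of most changes limit what can be called.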
